A study of Mus musculus with 2 samples.

Results

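Bcl6 and Blimp1 are transcription factors that oppose each other in helper T cells and B cells. The genes described here are Bcl6, Prdm1 (which encodes Blimp1) and 8 genes that act beside them in the choice between the follicular helper fate and effector fates, namely Cxcr5, Ascl2, Pou2af1, Tox2, Bach2, Id2, Id3 and Tcf4. They were chosen by gene name, as the noncontrol probes that the array files assign to these 10 genes, and gave 13 probes out of 55681, or 10 of the 27665 genes named on the array. Bach2, Tcf4 and Tox2 had 2 probes each and the other 7 genes 1 probe each, all printed in a single spot.

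RNA came from CD4 T cells that a cell sorter took from spleen cell cultures of female OVA-TCR-Tg mice, whose transgenic T cell receptor recognises ovalbumin (OVA), and both groups were given OVA at 0.1 mg/mL for 24 h. In the naive-only group, naive spleen cells were cultured at 2500000 cells/mL. In the co-culture group, such cells, at 1250000 cells/mL, shared the culture with as many spleen cells that had earlier been stimulated with TSST-1, a bacterial superantigen, at 0.1 μg/mL, which the labels call anergic. The labels give no age, no number of mice per culture and no marker that parts the naive cells from the added ones, so RNA of both may be on the co-culture array. With 1 array in each group (single colour), the differences could not be tested or checked against replicates.

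Follicular helper T cells enter B cell follicles through the chemokine receptor Cxcr5 and help B cells make antibody, and Bcl6 is the factor that defines them. Blimp1 represses Bcl6 and marks effector T cells and plasma cells, and Bcl6 in turn represses Prdm1. E proteins such as Tcf4 (also called E2-2) and the related factor Ascl2 bind E boxes in DNA, while Id2 and Id3 bind E proteins and keep them from DNA. Bach2 restrains effector genes and Prdm1, and Pou2af1 (OBF-1) is a coactivator of octamer-binding factors known best from B cells.

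The stretches of 250 bases before the annotated starts of Bcl6, Prdm1 and Bach2 were picked with the differences of these genes known. Bcl6 and Bach2, both known to restrain Prdm1, were lower in the co-culture and Prdm1 higher, but a link between these was not tested. The stretches are from RefSeq (GRCm38.p6), 5′ to 3′ on the gene's strand. In both Bcl6 stretches capitals mark TTCNNNGAA, letters that STAT sites and Bcl6 sites share. In the Prdm1 stretch they mark CAGNTG, an E box, and TGANTCA, letters that AP-1 and Bach sites share. In the Bach2 stretch they mark TTCNNNGAA and the reverse complement of AGNGAAAG, letters that the cores of Blimp1 sites share. N stands for any base in the search. The marked TGAATCA and CTTTCCCT thus fit patterns looser than the sites and need not be sites of these factors.
Bcl6, first listed start, chr16:23988853-23989102, minus strand: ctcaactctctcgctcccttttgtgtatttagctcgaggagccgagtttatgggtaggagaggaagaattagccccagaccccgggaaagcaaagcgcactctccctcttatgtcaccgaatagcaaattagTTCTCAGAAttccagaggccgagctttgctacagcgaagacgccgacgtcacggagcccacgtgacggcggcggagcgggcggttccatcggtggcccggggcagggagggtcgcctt
Bcl6, second listed start, chr16:23981284-23981533, minus strand: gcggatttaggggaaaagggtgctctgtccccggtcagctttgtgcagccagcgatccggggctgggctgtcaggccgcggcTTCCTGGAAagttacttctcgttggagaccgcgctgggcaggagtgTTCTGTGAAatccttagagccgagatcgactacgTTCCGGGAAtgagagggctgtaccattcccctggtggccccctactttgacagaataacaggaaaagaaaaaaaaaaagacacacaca
Prdm1, chr10:44458749-44458998, minus strand: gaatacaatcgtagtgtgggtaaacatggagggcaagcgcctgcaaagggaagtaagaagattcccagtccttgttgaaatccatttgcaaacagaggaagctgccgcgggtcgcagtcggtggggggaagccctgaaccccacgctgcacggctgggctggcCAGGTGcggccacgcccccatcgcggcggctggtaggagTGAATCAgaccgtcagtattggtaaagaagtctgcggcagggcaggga
Bach2, chr4:32417185-32417434, plus strand: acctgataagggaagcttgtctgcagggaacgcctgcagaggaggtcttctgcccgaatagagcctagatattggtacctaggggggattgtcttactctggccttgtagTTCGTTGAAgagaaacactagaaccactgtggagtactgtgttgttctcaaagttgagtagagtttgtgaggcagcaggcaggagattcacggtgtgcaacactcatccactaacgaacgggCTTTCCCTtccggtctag

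Each motif was searched on both strands in 32841 windows of 250 bases. TTCNNNGAA was in 7.02% of all windows. It occurred 3 times before the second listed Bcl6 start, as TTCCTGGAA, TTCTGTGAA and TTCCGGGAA, beginning 168, 122 and 88 bases upstream. Of the 32841 windows, 9 (0.027%) held 3 or more. As 3 is the count seen in this Bcl6 window, that share is a description. The first of these matches, TTCCTGGAA, also fits TTCCTNGAA, a narrower Bcl6 site that lies within TTCNNNGAA and was in 1.31% of windows. The first listed Bcl6 start had TTCTCAGAA 118 bases upstream. In Prdm1, CAGGTG began 87 bases upstream and TGAATCA 48 bases upstream, and these motifs were in 44.8% and 6.75% of all windows. Bach2 had TTCGTTGAA 140 bases and CTTTCCCT 18 bases upstream, the latter motif (AGNGAAAG) being in 7.30% of windows. Of the 8 members in the table, 4 had CAGNTG in at least 1 window (Ascl2, Id2, Prdm1 and Tox2), and none had the octamer ATGCAAAT, which was in 1.60% of windows. A match is a description of letters, and binding was not measured.

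Of the 10 genes, 9 were called well above background on each array by the scanner software, and Tox2 was not above it on either. Of these 9, the co-culture had 6 lower by at least 2-fold, beside 5.54% of all 14378 genes measured on both arrays. Another 2 were at least 2-fold higher, beside 7.72% of all measured genes, and Id2 was under 2-fold. The median log2 difference (co-culture minus naive-only) was -1.53 over the 9 and -0.05 over all measured genes, whose quartiles were -0.37 and 0.33. Since the members were chosen with earlier results of these arrays known, these counts are a description.

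Markers of other cells differed too. The T cell genes Cd4 (levels 5.54 in the naive-only group and 5.90 in the co-culture) and Cd3e (6.11 and 6.48) were well above background on both. A level here is the log2 of the background-subtracted intensity relative to that array's 75th percentile. B cell markers were also present in the sorted cells: 14 of 17 were above background on both arrays, 12 of the 14 were lower by at least 2-fold in the co-culture and 1 higher, with a median of -1.68 and a range of -5.03 to 1.33. Pax5, a B cell defining factor, was near the limit of detection on the naive-only array and below it on the co-culture array. The summed B cell marker signal was 64.1 times the array's 75th percentile in the naive-only group and 27.0 times in the co-culture, and without Fcmr, the higher one, which T cells can express too, 58.8 and 13.6 times. Bcl6, Cxcr5, Pou2af1, Bach2, Id3 and Tcf4 are known to be expressed by B cells as well as by T cells. The part of B cell RNA in their differences was not tested, and fewer cells of a type and less RNA per cell cannot be told apart in such bulk samples.

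**Figure D1:**
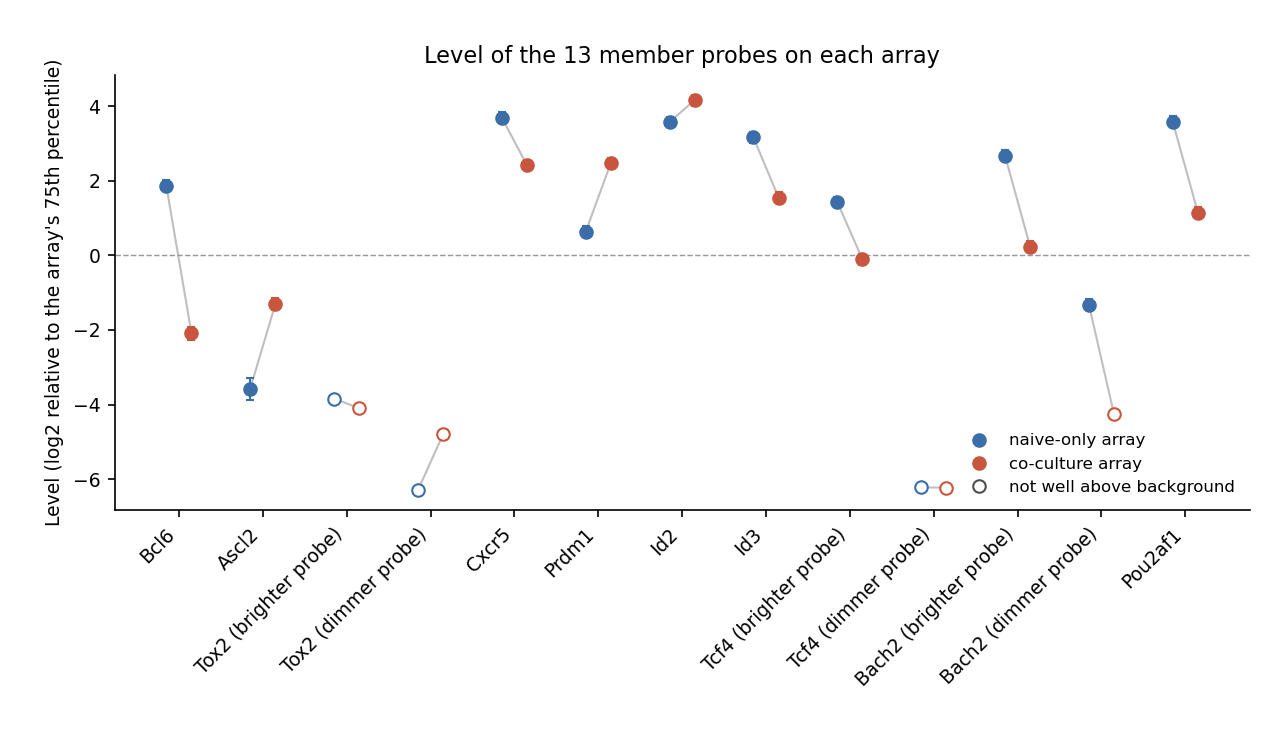
Level of each of the 13 probes on the naive-only array (blue) and the co-culture array (red), as log2 intensity relative to the array's 75th percentile, with the scanner software's technical error as bars on filled points. Open points were not well above background. Bcl6 went from 1.86 to -2.09, and Prdm1 from 0.63 to 2.47.

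Bcl6, the zinc finger repressor that defines the follicular helper fate, had the largest difference of the 9. Its probe (chromosome 16, 23965160 to 23965219, mm9) gave 1088 ± 109 intensity units in the naive-only group and 70.7 ± 8.48 in the co-culture, where the error is the software's technical error. The levels were 1.86 and -2.09, so the log2 difference was -3.95 ± 0.23, or 15.5-fold lower. Only 23 of the 14378 measured genes (0.16%) had a lower value. With another background correction (normexp, which models background and signal together), Bcl6 was 8.45-fold lower. Of the 14 measured B cell markers, Ms4a1 (-5.03) alone was lower than Bcl6, and the next, Spib, was at -3.46. The other 3 markers were above background on the naive-only array alone, so only limits can be given for them. Fcrla was at -3.46 or lower and Blk at -2.55 or lower, while Pax5 was too dim for a useful limit. Whether Fcrla was lower than Bcl6 could thus not be told. Germinal centre B cells express Bcl6 strongly. Of 8 markers of these cells, 4 were well above background on both arrays, 1 on the naive-only array alone and 3 on neither. Among the 4, Fas (-1.40, levels 2.11 and 0.71) and Mef2b (-1.33) were lower by over 2-fold, and the median was -0.87. Their part in the Bcl6 difference was not tested.

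Prdm1 went the other way. Its probe (chromosome 10, 44157089 to 44157148) gave 464 ± 46.6 intensity units in the naive-only group and 1674 ± 167 in the co-culture. The levels were 0.63 and 2.47, a log2 difference of 1.84 ± 0.20, or 3.58-fold higher, and 2.5% of measured genes had a higher value. With normexp it was 3.08-fold higher. The difference of Prdm1 minus that of Bcl6, which does not depend on how the arrays are scaled, was 5.79 ± 0.30, or a 55.5-fold shift in their ratio (4.70 on the log2 scale with normexp). Plasma cells express Prdm1 too. Of 8 measured plasma cell markers, 3 were at least 2-fold lower, Jchain (-3.20), Slamf7 (-1.77) and Mzb1 (-1.46). Xbp1 (1.15), which is also induced in activated T cells, was the 1 marker at least 2-fold higher. Tnfrsf17, another plasma cell marker, was not above background on either array, and the summed signal of the list was 104 and 178 times the 75th percentile. Without Xbp1 the sum was lower in the co-culture, at 30.0 and 13.7 times.

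Among the genes of the follicular helper fate that Bcl6 works with, the receptor gene Cxcr5 was lower and the factor gene Ascl2 higher. Cxcr5 (chromosome 9, 44320071 to 44320130) gave 3857 ± 386 units in the naive-only group and 1611 ± 161 in the co-culture, a log2 difference of -1.27 ± 0.20, or 2.41-fold lower. Ascl2, an E box binding factor that can induce Cxcr5, gave 25.2 ± 5.19 and 122 ± 13.2 units (chromosome 7, 150152734 to 150152793). Its log2 difference was 2.26 ± 0.34, or 4.80-fold higher, but 2.03-fold with normexp. Ascl2 was dim on the naive-only array, where its level of -3.57 was near the faintest level that the software still called (-4.03), and its technical error was the largest of the 9. Cxcr5 and Ascl2 thus differed in opposite directions, as did Ascl2 and Bcl6.

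Tox2, an HMG box factor linked to follicular helper cells, was not measured. One probe gave 20.9 ± 4.78 and 17.6 ± 5.28 units and the other 3.82 ± 3.84 and 10.9 ± 4.31, all short of the software's limit, so no fold is given. This says that Tox2 was not detectable with these probes, not that it was absent. Its relative Tox, by contrast, was measured, with levels of 0.50 and -0.46 and a log2 difference of -0.96, and its other probe gave -0.72.

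Bach2, the repressor that restrains effector genes, was lower by both probes. The brighter probe (chromosome 4, 32673009 to 32673068) gave 1911 ± 191 units in the naive-only group and 353 ± 35.5 in the co-culture, a log2 difference of -2.45 ± 0.20, or 5.45-fold lower. The dimmer probe, at 32588782 to 32588841, gave 120 ± 12.6 units in the naive-only group and 15.7 ± 4.54 in the co-culture, where it was not well above background. It was at least 5.98-fold lower, with the lowest level well above background taken as its co-culture level. Its sequence is printed with those of Id3 and the brighter Tox2 probe, since these 3 show, in turn, the second reading of Bach2, a probe that crosses an intron and a probe without detectable signal.
Bach2, dimmer probe, chr4:32588782-32588841 (mm9): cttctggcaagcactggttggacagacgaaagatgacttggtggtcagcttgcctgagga
Id3, chr4:135700075-135700249 (mm9): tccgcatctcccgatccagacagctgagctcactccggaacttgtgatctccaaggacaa
Tox2, brighter probe, chr2:163101725-163101784 (mm9): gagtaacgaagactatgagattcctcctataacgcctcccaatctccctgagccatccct

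The inhibitors of E proteins parted. Id3 (2673 ± 267 units in the naive-only group and 881 ± 88.2 in the co-culture), which restrains follicular helper cells and keeps naive T cells quiescent, had a log2 difference of -1.61 ± 0.20, or 3.05-fold lower. Its probe of 60 bases covers 175 bases of the genome, so it joins sequence from both sides of an intron. Id2, which supports effector cells and is known to be repressed by Bcl6, gave 3561 ± 356 and 5379 ± 538 units (chromosome 12, 25778904 to 25778963). It was 1.5-fold higher at 0.59 ± 0.20 and stayed under 2-fold in all 8 alternative settings. The difference of Id2 minus that of Id3 was 2.20 ± 0.29, a 4.58-fold shift in their ratio. Id1, another inhibitor, was at -1.23, or -0.94 with normexp, and Id4 was well above background on neither array.

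Tcf4, an E protein that defines plasmacytoid dendritic cells and is also made by B cells, was lower. Its brighter probe (chromosome 18, 69842843 to 69842902) gave 806 ± 80.7 units in the naive-only group and 280 ± 28.5 in the co-culture, a log2 difference of -1.53 ± 0.21, or 2.90-fold lower. The other probe, at 69847562 to 69847621, was at 4.03 ± 3.71 and 4.02 ± 4.03 units, not above background on either array. The E proteins that T cells mainly use stood at 0.27 (Tcf3, levels 3.33 and 3.60) and -0.69 (Tcf12). Of 11 measured markers of plasmacytoid dendritic cells, 1 was at least 2-fold lower, Ly6d (-3.84), which B lineage cells also express, and 1 higher, Runx2 (1.26, or 0.59 with normexp). Their median was -0.12, with 9 of the 11 below 0 and 2 above. Tlr7 (-0.12) and Pacsin1 (0.11) each had another measured probe, which gave -3.63 and -1.11. With the mean of measured probes the median was -0.70. Klk1, above background on the naive-only array alone, was at least 3.11-fold lower. The summed signal of the list was 388 and 311 times the 75th percentile. Siglech, a defining marker, was at 7.35 and 7.23, above Cd4 (5.54 and 5.90) in these sorted cells, and what its probe read was not tested. Without Siglech the sum was 224 and 161 times, to which Irf8 gave the most (116 and 67.6). The sum rests on few genes and is not a count of these cells.

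Pou2af1 was 5.41-fold lower. Its probe (chromosome 9, 51048121 to 51048180) gave 3580 ± 358 units in the naive-only group and 666 ± 66.7 in the co-culture, a log2 difference of -2.44 ± 0.20. Its partners, the octamer-binding factors, differed less, with Pou2f1 at 0.20 and Pou2f2 at -0.56 (-0.59 by its other probe). Spib, an Ets factor of B cells, was at -3.46.

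**Figure D2:**
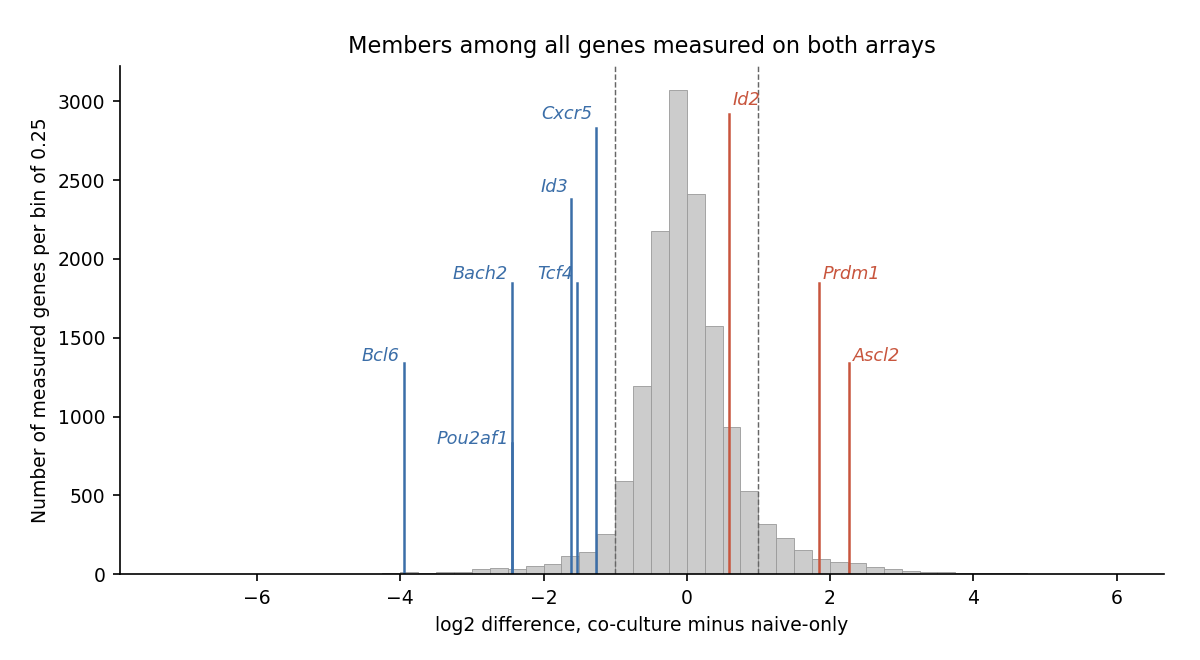
Number of the 14378 genes measured on both arrays in bins of the log2 difference, co-culture minus naive-only, with a line for each of the 9 measured members (line heights only keep the names apart). Dashed lines mark a 2-fold difference. Bcl6 lies at -3.95 in the lower tail, Ascl2 at 2.26 and Prdm1 at 1.84 in the upper tail, and Id2 at 0.59 inside the 2-fold lines.

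Other genes of the follicular helper fate did not all follow Bcl6. Of 27 measured genes of that list, 6 were at least 2-fold lower, 3 higher and 18 neither, with a median of -0.43. The cytokine gene Il21, which follicular helper cells use to instruct B cells, was at -0.55 (levels 5.98 and 5.43), and the costimulatory receptor gene Icos at -0.08 (7.71 and 7.63). Pdcd1, which encodes the inhibitory receptor PD-1, was at 1.42 and the factor gene Maf, which supports Il21 and Il4, at 2.80. Cd40lg, the ligand by which T cells license B cells, was at -2.20 (-1.41 with normexp), and the inhibitory receptor gene Btla at -1.74. Tcf7 and Lef1, which encode factors that promote Bcl6, were at -1.50 and -0.48, and Tcf7 was at -1.64 by its other probe. Batf and Irf4, factors that act early in both fates, stood at -0.44 and -0.43. Cxcl13, the Cxcr5 ligand, was well above background on neither array.

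Of 27 measured genes that signal upstream of the pair, 3 were at least 2-fold lower, 1 higher and 23 neither. That is 4 past 2-fold, near the 13.3% of all measured genes past it in either direction, and the median was -0.11. The interleukin 6 pathway, which raises Bcl6 through Stat3, had the shared receptor chain Il6st at -2.08, Il6ra at 0.18 and Stat3 at -0.13. The interleukin 2 pathway, which raises Prdm1 through Stat5, had the receptor chain genes Il2ra at 0.51, Il2rb at 1.23 and Il2rg at -0.43. Stat5a was at -1.29 and Stat5b at 0.01. Klf2, which restrains follicular helper cells, was at -1.04. The cofactors of Bcl6 and Blimp1, which include Ncor and histone deacetylase genes, had a median of 0.08 over 19 genes (-0.15 when scaled to T cell markers), of which 18 were under 2-fold and Zbtb32 was higher at 1.82. Relatives of the members were likewise mostly under 2-fold, with 14 of 15 and a median of -0.15, and Bach1, the closest relative of Bach2, at -0.53.

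In the list of other E protein and Id genes with their cofactors, 10 of 15 were measured, 3 were at least 2-fold lower and none higher, with a median of -0.28. Besides Id1, the lower ones were the corepressor gene Cbfa2t3 (-2.53, but -1.37 with normexp and -0.35 by its other probe) and Lmo2 (-2.28, or -1.56 with normexp).

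Genes known to be repressed by these factors were counted too, and whether the factors caused their differences was not tested. Over all measured genes, 7.72% were at least 2-fold higher and 5.54% lower. The lists overlap, with Ccr7, Il7r and Myc in those of Bcl6 and Blimp1. Rora and Gata3 are in those of Bcl6 and Bach2, and Ifng in those of Blimp1 and Bach2. Gata3 (1.33) thus counts as higher in both of its lists. Bcl6 was lower, and of 22 measured genes known to be repressed by it, 3 were at least 2-fold higher, 8 lower and 11 neither, with a median of -0.35. The guidance receptor gene Gpr183 (-3.33), Cd69 (-2.55) and the homing receptor gene Ccr7 (-2.40) were among the lower ones, as Bcl6 itself was. The part of B cell RNA in the differences of this list was not tested. Prdm1 was higher, and of 10 measured genes known to be repressed by Blimp1, 5 were at least 2-fold lower and 1 higher, with a median of -1.15. Il2 (-7.08), Spib (-3.46), Il9 (-3.19) and Ccr7 (-2.40) led the lower ones, and Il7r (1.76) was the higher one. Ifng, in the same list, was just under 2-fold higher at 0.99, and at 1.07 in the deposited value table. Spib and the 2 genes above background on the naive-only array only, Ciita and Pax5, are B cell or antigen presentation genes.

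Bach2 was lower, and of 17 measured genes known to be repressed by it, 9 were at least 2-fold higher, 2 lower and 6 neither, with a median of 1.17. These were led by Il4 (5.37), Gzmb (4.43), Il10 (3.74) and the calcium-binding protein gene S100a6 (2.20). The 2 lower genes were Rora (-1.58) and Ahr (-1.20). The list of effector genes of the Blimp1 side, which shares genes such as Gzmb and Il10 with it, had 12 of 24 at least 2-fold higher and 3 lower, with a median of 0.83. With normexp this median was 0.53. Fasl, the death ligand gene, was at 2.99, whereas Eomes, a factor of cytotoxic and memory cells, was at -3.84 (-2.89 with normexp).

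**Figure D3:**
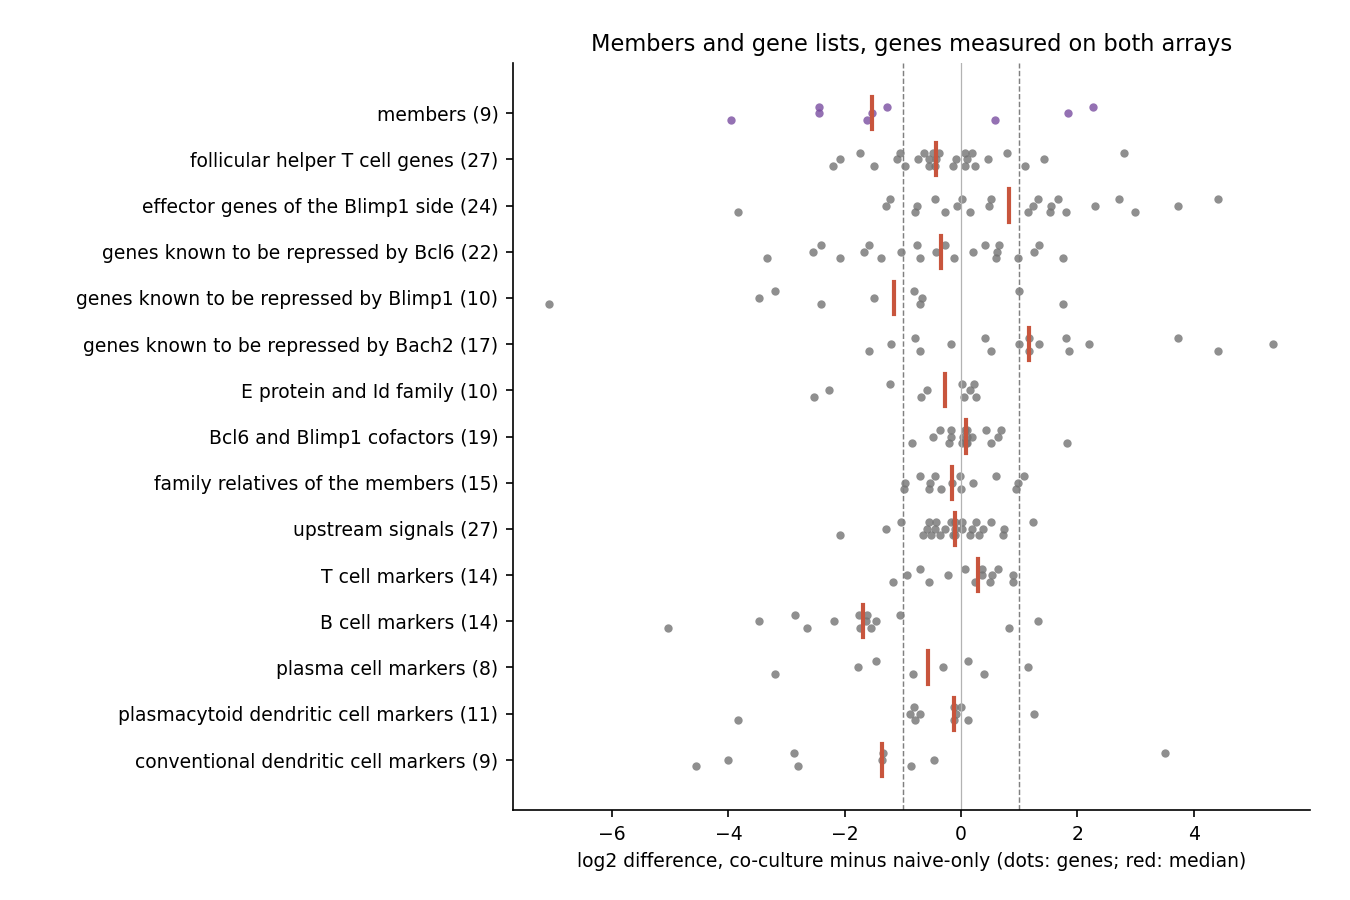
log2 difference (co-culture minus naive-only) of each gene measured on both arrays, by list, with the number of measured genes in brackets and the list median in red. Dashed lines mark a 2-fold difference. The medians were -1.53 for the members, 1.17 for genes known to be repressed by Bach2, -1.15 for genes known to be repressed by Blimp1 and -1.68 for B cell markers.

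The direction of all 9 measured members was the same in the 8 other settings tried, and the 8 members past 2-fold remained past it in each. Of these settings, the deposited table and quantile normalization gave almost the same values and count as 1. The mean of measured probes and the removal of marked spots could hardly move a member. Each of the 9 had 1 measured probe and no marked spot. Settings that only rescale the arrays move every gene by the same amount. Normexp moved Bcl6 and Ascl2 by over 1.5 times. Scaling both arrays to their T cell markers, a choice made after the data were seen, shifted the median of all measured genes to -0.28, so that 811 genes were at least 2-fold higher and 1323 lower, against 1110 and 796 otherwise. Under it Bcl6 was at -4.19 and Prdm1 at 1.61.

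**Figure D4:**
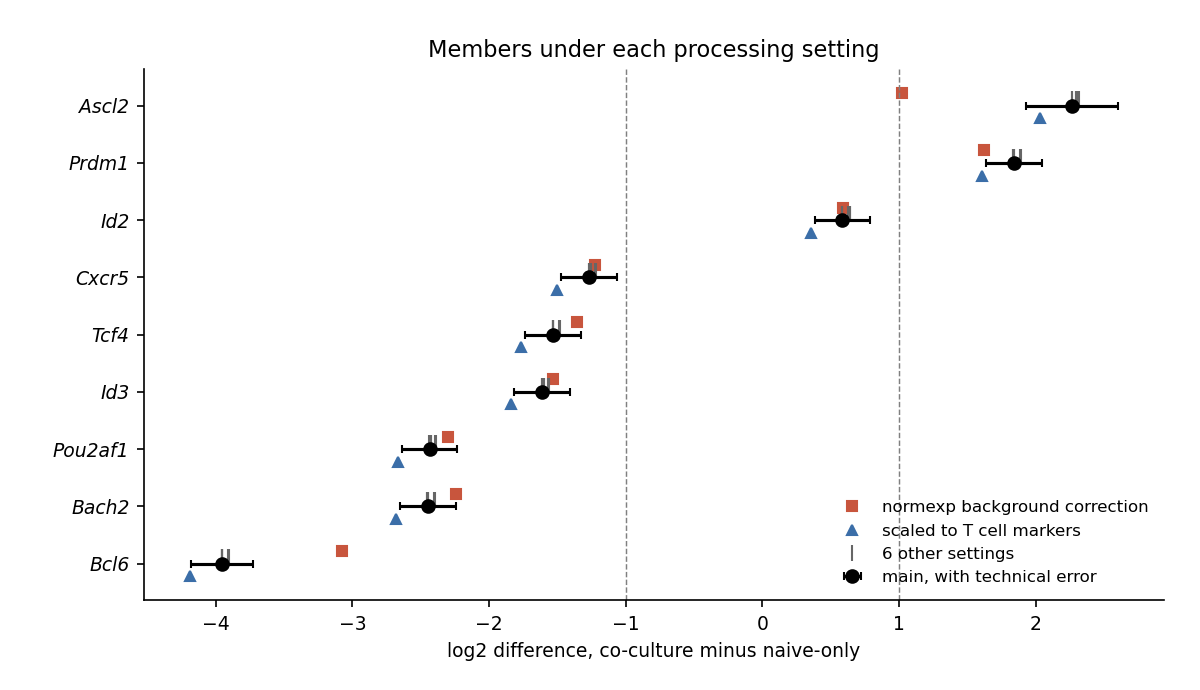
log2 difference (co-culture minus naive-only) of the 9 measured members in the main setting (black, with technical error), with normexp background correction (squares), scaled to the T cell markers (triangles) and in 6 other settings (ticks). No member changes side of 0. Bcl6 moves from -3.95 to -3.08 and Ascl2 from 2.26 to 1.02 with normexp.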

How the data were processed

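Per the labels' protocols, RNA was amplified by an Ovation V2 kit, which can alter relative levels, and carried Cy3. Both arrays lay on 1 slide. The file headers name Agilent Feature Extraction 10.7.1.1 as the source of the deposited intensity of each spot, and the submitters' processing notes 9.5.1.1. The software flags of each spot (well above background, saturated, outlier), other values of 0 or 1, are deposited with it.

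The main level was log2 of the deposited processed intensity minus the 75th percentile of all noncontrol probes on that array (299 and 301 units). A gene was represented by its brightest probe and called measured if both arrays had it well above background. No noncontrol spot was saturated. The number of arrays limits the precision. The technical error comes from the software's error model, with a median of 0.20 (log2). Repeated spots of 1 probe had a median SD of 0.062 and 0.0575.

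Gene names came from the array files, and 27235 of 36743 named probes were matched by accession to RefSeq (GRCm38.p6). Positions of probes use mm9, as the file headers give them, and exon and UTR annotation was not used here. The authors' deposited value table, a normalized linear intensity (median 14.5 in both columns), had the ranks of the scanner values and served as an alternative. Its method was not given in the sources used here, but its calls (1141 higher and 775 lower) were as many as with quantile normalization of both arrays. Its scale is unknown.

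The members, the lists and the named genes were chosen with earlier results of these data known. Named were all members, 19 partner genes and up to 4 of the largest differences past 2-fold per list. Some genes that this rule names are not reported here. Named outside it, after their values were seen, were Cd4, Cd3e, Siglech, Pax5, Tnfrsf17, Ciita, Fcmr, Id4, Il7r, Rora, Ahr, Cd8b1, Klrd1 and Klrk1. Others named in the same way were Fcrla, Blk, Klk1, Ifng, Stat5b, Il2rg, Irf8, Tlr7, Pacsin1, Gata3 and Myc. The counting step at 2-fold was run on simulated data, which checks the calculation only and says nothing about variation between cultures. The calculations used Python 3.11.15, numpy 2.4.6, pandas 2.3.3, R 4.3.3 and limma 3.58.1 (normexp, offset 50).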

Additional observations from a re-analysis of the deposited data

How the results depend on the processing

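The counts of members at least 2-fold higher (2) and lower (6) were unchanged under normexp, median scaling, a percentile over probes above background on both arrays, quantile normalization, the deposited value table, removal of marked spots, the mean of a gene's measured probes, no filter on dim probes and scaling to T cell markers. Removal of marked spots and the mean of measured probes could hardly move these counts, since each measured member had 1 measured probe and no marked spot. The counts over all measured genes (1110 higher and 796 lower) were 2458 and 2155 with no filter on dim probes, and 363 and 193 when only measured genes brighter than their median were kept, since these change how many genes are counted. Normexp gave 529 lower, and scaling to T cell markers 1323 lower, with 38.0% of calls higher in place of 58.2%. Scaling to T cell markers lowers every difference by the same amount, and its shift in the counts follows from that. Why normexp gave fewer lower genes was not tested. The median of the E protein and Id list turned from -0.28 to 0.06 with no filter on dim probes, and that of the cofactors from 0.08 to -0.15 with scaling to T cell markers. The median of plasmacytoid dendritic cell markers was -0.70 with the mean of measured probes. Dim probes are the least certain, and Ascl2 on the naive-only array and Bcl6 on the co-culture array were among them. The marker sums without 1 gene were chosen after the data were seen. No paired analysis was possible because each group had 1 array.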

Other observations

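Markers of other cells that a sort for CD4 T cells should remove were also counted. Of 9 measured markers of conventional dendritic cells, 6 were lower by at least 2-fold in the co-culture, among them Fscn1 (-4.56), H2-Aa (-4.00) and Flt3 (-2.87, or -1.47 with normexp), and Batf3 (3.51), which activated T cells express too, was higher. Their summed signal was 141 and 91.6 times the 75th percentile in the naive-only group and the co-culture, and 137 and 36.1 times without Batf3. Macrophage and monocyte markers had a median of -0.29 over 7 genes, with Cd14 (-1.71) and Lyz2 (-1.12, or -0.38 with normexp) lower. Natural killer cell markers had a median of -1.25 over 5 genes, of which 3 were lower, Eomes (-3.84) by most, and Gzma (1.80) was higher. Klrd1 and Klrk1 were above background in the co-culture only, at least 4.62-fold and 2.67-fold higher. The summed signal of this list was 30.9 and 77.1 times the 75th percentile, but 9.75 and 3.48 times without Gzma, which effector T cells express too. CD8 T cell markers had a median of 0.49 over 5 genes, with Klrc1 at 3.65 (1.96 with normexp), Eomes at -3.84 and Cd8b1 at -0.56. The summed signal was 4.17 and 2.68 times the 75th percentile, but 1.40 and 2.49 times without Eomes. T cell markers had a median of 0.30 over 14 genes, of which Cd6 (-1.16) was the only one past 2-fold.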
